A study of Mus musculus with 18 samples.

Results

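The suppressor of cytokine signaling (SOCS) family was followed through every sorted population of the MC38 liver metastasis model. The family has 8 members, Cish and Socs1 to Socs7, which were listed by gene symbol with earlier results of these data known. All 8 were in both count tables, of 54309 genes for lymphocytes and 13759 for macrophages, and all 8 passed the filter on low counts, which left 13594 and 13759 genes to test. The largest differences among the members were those of Cish and Socs2. Both were lower in mature F4/80hi macrophages than in F4/80int macrophages, by 7.25-fold and 8.47-fold, and both were higher in liver ILC1 than in liver NK cells, by 7.04-fold and 13.0-fold.

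SOCS proteins are the brakes of JAK-STAT signaling. A cytokine receptor activates its Janus kinases, these phosphorylate a STAT factor, and the STAT factor switches on SOCS genes along with its other targets. The SOCS proteins made in this way block the kinase or the receptor, and their SOCS box joins them to elongins and a cullin so that bound partners are ubiquitinated. CIS, the product of Cish, and SOCS2 are classical products of STAT5 signaling, and CIS is known as a checkpoint of IL-15 signaling in NK cells. SOCS1 is best known for restraining interferons and common gamma chain cytokines, and SOCS3 for restraining cytokines that signal through gp130 and STAT3.

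Lymphocytes came from female C57BL/6J mice whose livers had been colonized from the spleen by injected MC38 cells (a colon adenocarcinoma line of the mouse) at 8 to 10 weeks of age, and livers were taken 20 days later. Lineage-negative CD45+ NKp46+ lymphocytes of metastasis-free liver (MFL) were sorted into NK cells (CD49a- CD49b+) and ILC1 (CD49a+ CD49b-). Those of liver metastasis (LM) were sorted into CD49a- NK cells and CD49a+ NK cells (CD49a+ CD49b+), and the titles call the latter ILC1. Each of these 4 populations had 3 libraries, every library a pool of 6 to 8 samples, and no mouse without metastasis was among them. LM was digested with Liberase and DNase while MFL was smashed and filtered, so the site and the dissociation cannot be told apart. The metastasis-associated macrophages (MAMs) were lineage-negative CD45+ CD11b+ cells of MC38 metastases from female mice. They were sorted as F4/80hi or as F4/80int (F4/80low in the labels), with 3 libraries each. The study's methods give C57BL/6J mice, 8 to 10 weeks of age at injection and day 20 for the MC38 model, not separately for MAMs. The 2 experiments used different library kits, total RNA for lymphocytes and poly(A) RNA for MAMs, and no level was compared between them.

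Total counts lay between 8795721 and 14386834 per lymphocyte library and between 21278959 and 32267015 per MAM library. Itga1, which encodes the sort marker CD49a, was at 663 ± 17.1 CPM in ILC1 and 134 ± 26.5 CPM in CD49a+ NK cells of LM against 11.5 ± 7.46 and 11.4 ± 5.62 CPM in the CD49a- NK cells of MFL and LM (CPM, counts scaled to library size, as mean ± SD, n = 3 here and below). Adgre1, which encodes F4/80, was at 958 ± 187 CPM in F4/80hi and 146 ± 19.0 CPM in F4/80int MAMs. The 5 Kupffer cell markers summed to at most 5.53 CPM in any lymphocyte library. The 10 T cell markers summed to between 621 and 1035 CPM in ILC1, between 95.9 and 173 CPM in MFL NK cells, and between 104 and 228 CPM in CD49a- and between 212 and 258 CPM in CD49a+ NK cells of LM. In ILC1 this sum came mainly from Cd3g (472 ± 226 CPM, against 6.21 ± 2.80 in MFL NK cells), Trbc1 (231 ± 40.9 CPM) and Trbc2 (101 ± 15.4 CPM), while Cd3e was at 0.122 ± 0.21 CPM, and no marker of the list was at 0 in every ILC1 library. The biological coefficient of variation between replicates was 0.517 in MFL NK cells, 0.657 in ILC1, 1.09 in CD49a+ and 1.25 in CD49a- NK cells of LM, and 0.16 and 0.164 in F4/80int and F4/80hi MAMs. The lymphocyte pools were collected in separate sortings. No such statement was found for the MAM replicates, whose p-values measure only the spread between these libraries. In bulk samples, fewer cells of a type and less RNA per cell cannot be told apart.

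Promoter sequence is shown because STAT factors switch SOCS genes on, and most STAT dimers bind the palindrome TTCNNNGAA. The RefSeq promoter table (GRCm38.p6) held Cish, Socs1, Socs3 and Socs4. The 250 bases before the start are printed 5′ to 3′ on the strand of the gene for the 3 of these that differed between MAM subsets, Cish on the plus strand and Socs1 and Socs3 on the minus strand. Capitals mark matches to TTCNNNGAA or, on either strand, to GAAA followed after any 2 bases by GAAA, a spacing found in interferon response elements.
Cish, chr9:107296409-107296658: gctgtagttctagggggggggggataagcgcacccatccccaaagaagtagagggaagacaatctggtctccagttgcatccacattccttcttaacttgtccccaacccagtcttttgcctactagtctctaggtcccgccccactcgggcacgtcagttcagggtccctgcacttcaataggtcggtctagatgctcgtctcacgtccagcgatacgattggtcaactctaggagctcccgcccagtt
Socs1, chr16:10785537-10785786: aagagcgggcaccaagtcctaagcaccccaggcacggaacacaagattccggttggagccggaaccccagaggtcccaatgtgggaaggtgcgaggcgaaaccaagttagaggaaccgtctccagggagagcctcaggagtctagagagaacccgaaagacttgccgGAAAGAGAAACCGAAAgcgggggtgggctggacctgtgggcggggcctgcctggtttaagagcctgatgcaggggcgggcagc
Socs3, chr11:117969367-117969616: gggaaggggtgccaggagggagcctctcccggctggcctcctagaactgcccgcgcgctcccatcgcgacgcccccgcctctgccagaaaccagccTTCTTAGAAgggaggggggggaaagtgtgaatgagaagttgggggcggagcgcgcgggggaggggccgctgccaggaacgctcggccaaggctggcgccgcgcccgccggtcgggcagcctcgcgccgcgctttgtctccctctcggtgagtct
Socs3 held 1 match to the palindrome, TTCTTAGAA, from 154 to 146 bases before the start, and 7.02% of all 32851 promoters held at least 1 in the same window. Socs1 held 2 overlapping matches to the GAAA pair, GAAAGAGAAA and GAAACCGAAA, from 83 to 68 bases before the start. Of all promoters 2.98% held at least 1 and 0.18% held 2 or more. Cish and Socs4 had neither motif in this window. A match is a string of letters and no test of binding.

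Cish, the IL-15 checkpoint gene, was low in NK cells of the liver and higher in the other 3 lymphocyte populations. In MFL NK cells its level was 33.9, 13.6 and 22.0 CPM in replicates 1 to 3. In CD49a- NK cells of LM it was 101, 59.9 and 231 CPM and in CD49a+ NK cells of LM 103, 134 and 206 CPM. In ILC1 it was 119, 189 and 180.2 CPM. All 9 libraries of the latter 3 populations lay above all 3 libraries of MFL NK cells, and the ranges of those 3 populations overlapped each other. These values rest on 184 to 2935 counts per library.

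Against MFL NK cells, Cish was 6.38-fold higher in CD49a+ NK cells of LM, a log2 fold change of 2.67 ± 0.45 (SE) with an adjusted p of 0.0112 by edgeR's quasi-likelihood test and Benjamini-Hochberg adjustment. It was the 1 member called at an adjusted p under 0.1, where 0.647% of all 13594 genes were called, and 1 of 3 members whose ranges did not overlap, where 20.1% of genes did not. It was called in each of the 12 fits without a library and in each of the 6 other fits. In CD49a- NK cells of LM it was 5.65-fold higher than in MFL NK cells (2.50 ± 0.45, adjusted p = 0.0675), again the 1 member called, where 0.0736% of genes were called. There 3 members did not overlap, against 16.2% of genes. In ILC1 Cish was 7.04-fold higher than in MFL NK cells (2.81 ± 0.46, adjusted p = 0.00131). The 3 comparisons share the MFL NK libraries.

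The call in CD49a- NK cells of LM depended on the libraries and the fit. The adjusted p was 0.443 when the 2 populations were fitted alone. It was 0.103 without replicate 1 of CD49a- NK cells of LM or without replicate 1 of ILC1, and 0.18, 0.3 and 0.332 without replicates 1, 2 and 3 of MFL NK cells. The log2 fold change stayed between 1.79 and 2.87 in the 12 fits without a library.

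The CD49a-linked difference in Cish was not the same at both sites. Between ILC1 and NK cells of MFL it was 2.81 on the log2 scale, and between CD49a+ and CD49a- NK cells of LM it was 0.17 ± 0.43, adjusted p = 0.932. The interaction of CD49a and site, which tests the difference between these 2 values, was -2.64 ± 0.61, adjusted p = 0.0622. The CD49a+ cells were ILC1 (CD49b-) in MFL and NK cells (CD49b+) in LM, with Eomes at 20.3 ± 17.5 and 687 ± 203 CPM. Site, CD49b and cell type therefore cannot be told apart in the interaction, here and below. Cish was the 1 member called in the interaction, where 1.03% of genes were called. The call was lost in 7 of 12 fits without a library, with adjusted p-values up to 0.163. In those fits the interaction was -1.93 without replicate 3 of CD49a- NK cells of LM, -2.45 and -2.58 without replicates 1 and 2 of CD49a+ NK cells of LM, -2.52 and -2.56 without replicates 2 and 3 of ILC1, and -2.37 and -2.61 without replicates 2 and 3 of MFL NK cells.

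**Figure D1:**
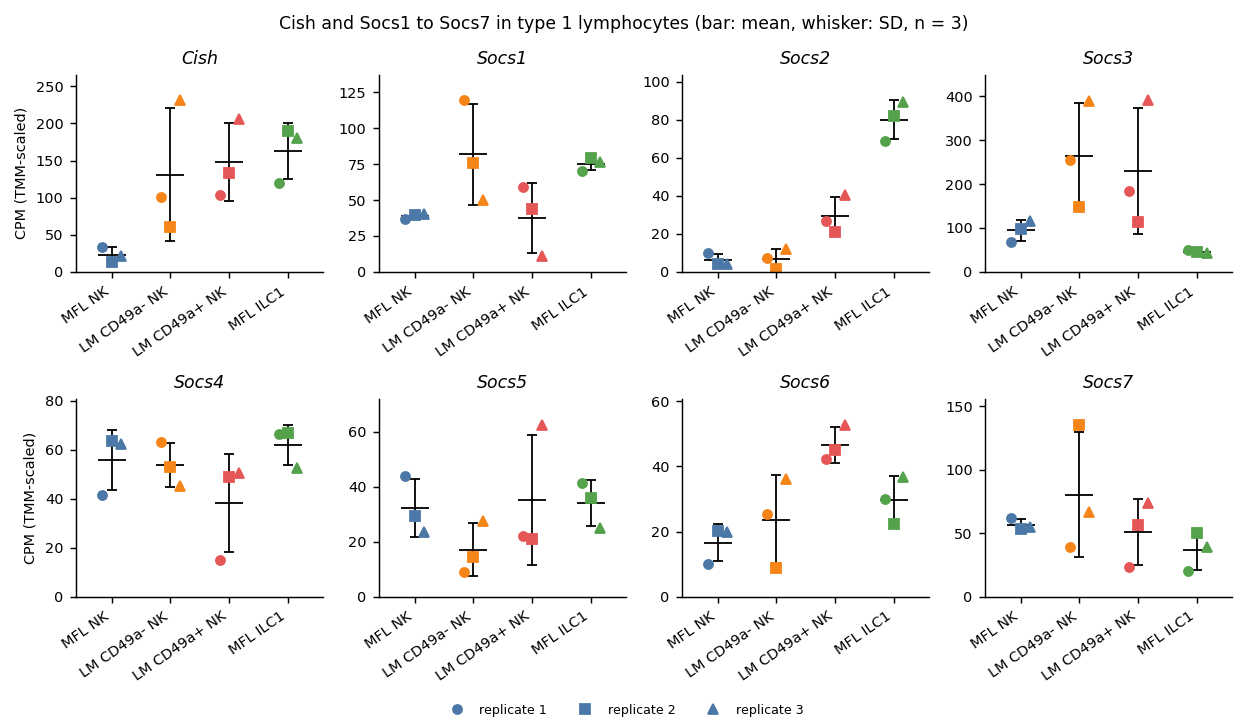
Levels of the 8 genes in CPM (vertical axes) in each of the 12 lymphocyte libraries, with symbols for replicates 1 to 3, horizontal bars for the mean and whiskers for the SD. Cish is lower in the 3 MFL NK libraries (13.6 to 33.9 CPM) than in the other 9, and Socs2 is at 21.0 to 40.6 CPM in CD49a+ NK cells of LM and 68.8 to 89.2 CPM in ILC1.

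Socs2, the other classical STAT5 product, did not separate CD49a- NK cells of LM from MFL NK cells. Its level in MFL NK cells was 10.1, 4.35 and 3.96 CPM, and CD49a- NK cells of LM had 7.13, 1.77 and 11.8 CPM, with overlapping ranges. It was 26.7, 21.0 and 40.6 CPM in CD49a+ NK cells of LM and 68.8, 82.0 and 89.2 CPM in ILC1. The libraries of ILC1 lay above all others, and those of CD49a+ NK cells of LM lay between them and both CD49a- populations. Between ILC1 and MFL NK cells Socs2 was 13.0-fold higher (3.70 ± 0.67, adjusted p = 0.00335), which with Cish made 2 of 8 members called, both higher, where 3.06% of genes were called and 1.38% were called higher. In that comparison 6 members did not overlap, against 25.3% of genes. The T cell marker sum given above was also higher in ILC1, and its part in the Cish and Socs2 differences was not tested.

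CD49a+ NK cells of LM differed in Socs2 from ILC1 by -1.44 ± 0.61, which did not pass over all genes (adjusted p = 0.292). It passed when the 2 populations were fitted alone (-1.43, adjusted p = 0.0719) and with limma-voom quality weights (-1.68, adjusted p = 0.0159). From MFL NK cells they differed by 2.26 ± 0.63, adjusted p = 0.201. That difference passed in 3 of 6 other fits, without the filter (adjusted p = 0.0439), with DESeq2 (adjusted p = 0.0185) and with limma-voom (adjusted p = 0.0115), and in 1 of 12 fits without a library, that without replicate 2 of CD49a- NK cells of LM (adjusted p = 0.0373).

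The ratio of Cish to Socs2 counts within a library does not depend on how libraries were scaled. It was 3.35, 3.12 and 5.56 in MFL NK cells and 3.87, 6.38 and 5.07 in CD49a+ NK cells of LM, with overlapping ranges. In CD49a- NK cells of LM it was 14.2, 33.8 and 19.6, resting on as few as 16 Socs2 counts. In ILC1 it was 1.73, 2.31 and 2.02. The CD49a- NK cells of LM thus lay above all other lymphocyte libraries and ILC1 below them. An exact permutation test of 3 libraries against 3 cannot give a two-sided p below 0.1, so no p is attached to these ratios.

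**Figure D2:**
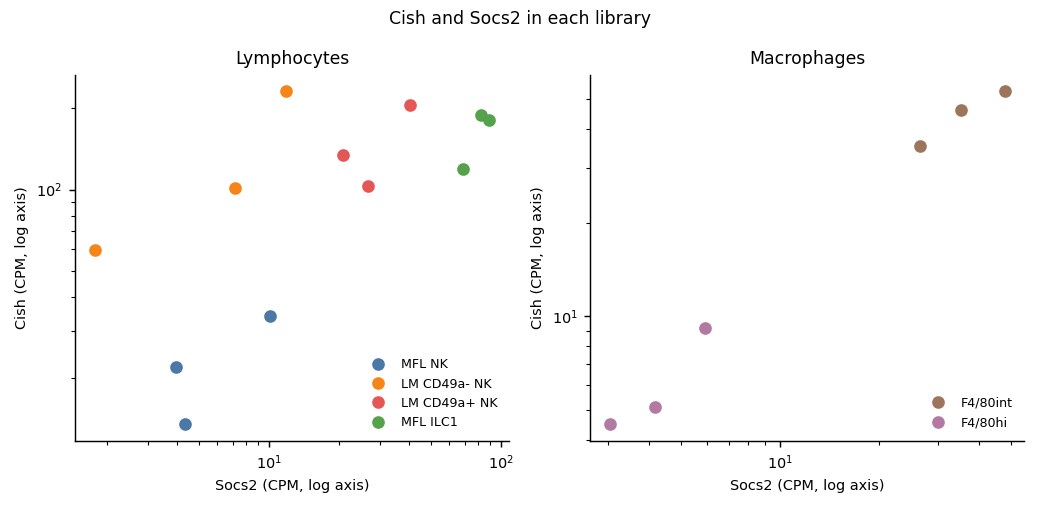
Cish against Socs2 in CPM, both on log axes, with 1 point per library, for the 12 lymphocyte libraries (left) and the 6 MAM libraries (right). CD49a- NK cells of LM combine Cish of 59.9 to 231 CPM with Socs2 of 1.77 to 11.8 CPM, and in MAMs both genes separate the subsets.

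Socs1, the inhibitor of interferon and common gamma chain signals, was even among replicates in the liver and scattered in the metastasis. In MFL NK cells it stood at 36.7, 39.8 and 40.2 CPM and in ILC1 at 70.3, 79.5 and 76.3 CPM. In CD49a- NK cells of LM it was 119, 75.7 and 50.0 CPM, and in CD49a+ NK cells of LM 58.8, 43.6 and 10.96 CPM. Both MFL populations lay apart from each other, while the 2 LM populations overlapped. The wider spread in LM was not particular to Socs1. Over all genes the biological coefficient of variation was 1.25 and 1.09 in CD49a- and CD49a+ NK cells of LM. In NK cells and ILC1 of MFL it was 0.517 and 0.657. Socs1 differed between ILC1 and MFL NK cells by 0.95 ± 0.47, which did not pass over all genes (adjusted p = 0.642) and passed when these 2 populations were fitted alone (0.94, adjusted p = 0.0119) and with limma-voom (0.97, adjusted p = 0.000763). Its interaction of CD49a and site was -2.07 ± 0.66, adjusted p = 0.309, and without the filter the adjusted p was 0.0611.

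Socs3, the inhibitor of gp130 and STAT3 signals, was lowest in ILC1. Its level was 49.6, 44.6 and 42.7 CPM there and 69.1, 98.7 and 116 CPM in MFL NK cells. It was 254, 148 and 389 CPM in CD49a- NK cells of LM and 185, 114 and 391 CPM in CD49a+ NK cells of LM. ILC1 lay below all other libraries. The range of CD49a+ NK cells of LM overlapped that of MFL NK cells, and the range of CD49a- NK cells of LM did not.

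Socs3 was 5.04-fold higher in CD49a+ NK cells of LM than in ILC1 (2.33 ± 0.41, adjusted p = 0.0031), the 1 member called, where 3.58% of genes were called. Of the 8 members 5 did not overlap in that comparison, against 23.2% of genes. The differences from MFL NK cells were 1.28 ± 0.39, adjusted p = 0.269 in CD49a+ NK cells of LM, 1.48 ± 0.39, adjusted p = 0.33 in CD49a- NK cells of LM and -1.05 ± 0.39, adjusted p = 0.294 in ILC1, none of which passed in this fit. Each passed in others. For CD49a+ NK cells of LM the adjusted p was 0.00265 without the filter and 0.0748 with DESeq2. For CD49a- NK cells of LM it was 0.000244 without the filter, 0.036 with DESeq2 and 0.0216 with limma-voom. For ILC1 it was 0.0255 without the filter, 0.0012 with limma-voom and 0.0166 when the 2 populations were fitted alone. Without replicate 2 of the LM population compared, the adjusted p was 0.0693 for CD49a+ and 0.0673 for CD49a- NK cells of LM.

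Immediate-early and dissociation genes moved with Socs3 in part of the libraries. This list of 14 genes holds rapid response genes such as Nr4a1 and the heat shock genes Hspa1a and Hspa1b. In MFL NK cells their summed level lay between 5276 and 6234 CPM, and in ILC1 between 4135 and 6970 CPM. It lay between 6356 and 14293 CPM in CD49a- and between 6402 and 12021 CPM in CD49a+ NK cells of LM. In both LM populations replicate 2 had the least of these genes and the least Socs3. The libraries of ILC1 were in the same order for both. In MFL NK cells the order was the reverse, with the highest sum in the library with the least Socs3. Replicate 1 of ILC1 had a sum of 6970 CPM, above all MFL NK libraries, and Socs3 of 49.6 CPM, below them. Between ILC1 and MFL NK cells the median log2 difference of the list was 0.00, against 0.01 over all genes. Only Nr4a1 of the list was called there, lower in ILC1 as Socs3 was (-2.52 ± 0.69, adjusted p = 0.0712), where 3.06% of all genes were called. For CD49a+ NK cells of LM against ILC1 the median of the list was 0.75, against -0.07 over all genes. Compared with MFL NK cells it was 0.44 against -0.04 for CD49a+ and 0.61 against -0.09 for CD49a- NK cells of LM. Between CD49a+ and CD49a- NK cells of LM it was -0.23 against 0.01. Of the 14 genes, 3 were called higher in CD49a+ NK cells of LM than in ILC1, namely Nr4a1 (4.70 ± 0.76, adjusted p = 0.00168), Hspa1a (3.22) and Hspa1b (3.28), and none lower. Over all genes 3.58% were called in that comparison. Hspa1a and Hspa1b were also called higher in each LM population than in MFL NK cells, Hspa1b by 3.47 ± 0.57, adjusted p = 0.00858 in CD49a+ and by 3.72 ± 0.58, adjusted p = 0.0201 in CD49a- NK cells of LM. Over all genes 0.647% were called for CD49a+ and 0.0736% for CD49a- NK cells of LM. The part of cell isolation in the Socs3 difference was not tested.

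**Figure D3:**
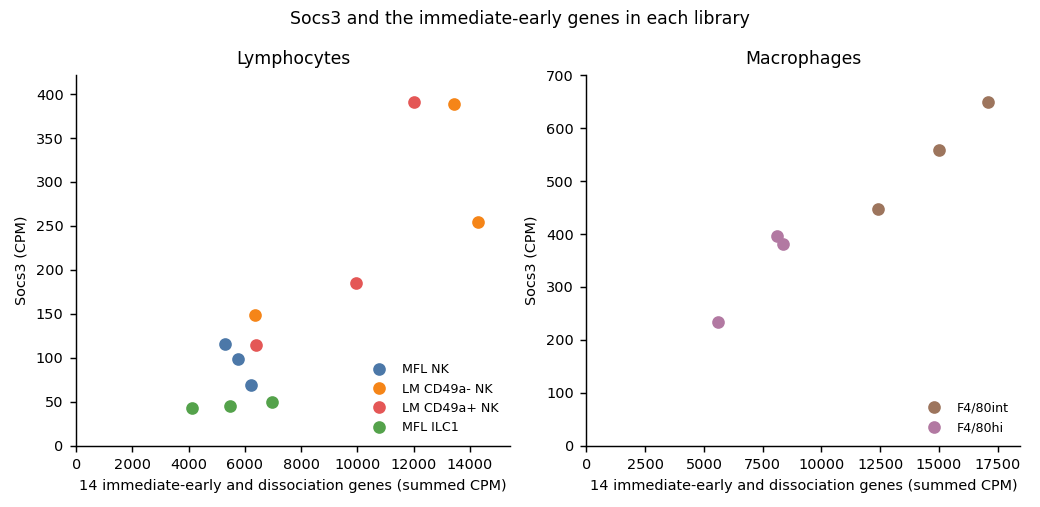
Socs3 in CPM (vertical axis) against the summed CPM of the 14 immediate-early and dissociation genes (horizontal axis), with 1 point per library, in lymphocytes (left) and MAMs (right). The 3 lymphocyte libraries with the most Socs3 (254, 389 and 391 CPM) are the 3 with the highest sums, all from LM, and the F4/80int MAMs lie above the F4/80hi MAMs on both axes.

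The remaining 4 members gave no call in any lymphocyte comparison. Socs4 ran from 15.1 to 67.0 CPM, Socs5 from 8.91 to 62.5 CPM, Socs6 from 8.86 to 52.7 CPM and Socs7 from 19.9 to 135 CPM over the 12 libraries, and the lowest of their counts was 80. Socs6 was at 42.1, 44.9 and 52.7 CPM in CD49a+ NK cells of LM, above the libraries of the other 3 populations. Its difference from MFL NK cells was 1.49 ± 0.56, adjusted p = 0.401 and from CD49a- NK cells of LM 0.98 ± 0.55, adjusted p = 0.507. The spread of Socs5 was widest in CD49a+ NK cells of LM, at 35.2 ± 23.6 CPM, and that of Socs7 in CD49a- NK cells of LM, at 80.4 ± 49.5 CPM.

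Within the metastasis none of the 8 members passed between CD49a+ and CD49a- NK cells, where 0.14% of genes did. Socs2 and Socs6 did not overlap, against 9.82% of genes. An unadjusted p under 0.05 was found for 2 of 8 members, Socs2 and Socs1, against 11.6% of genes. Socs1 was lower in CD49a+ NK cells, with overlapping ranges (-1.11 ± 0.47, adjusted p = 0.401). DESeq2 called 1 member, Socs2 (2.08, adjusted p = 0.0449), and so did edgeR without replicate 3 of CD49a- NK cells of LM (2.71, adjusted p = 0.0934). The median log2 difference of the 8 members was -0.01 in this comparison, where that of all genes was 0.01. It was 0.70 against -0.04 for CD49a+ NK cells of LM and 0.50 against -0.09 for CD49a- NK cells of LM, both compared with MFL NK cells.

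**Figure D4:**
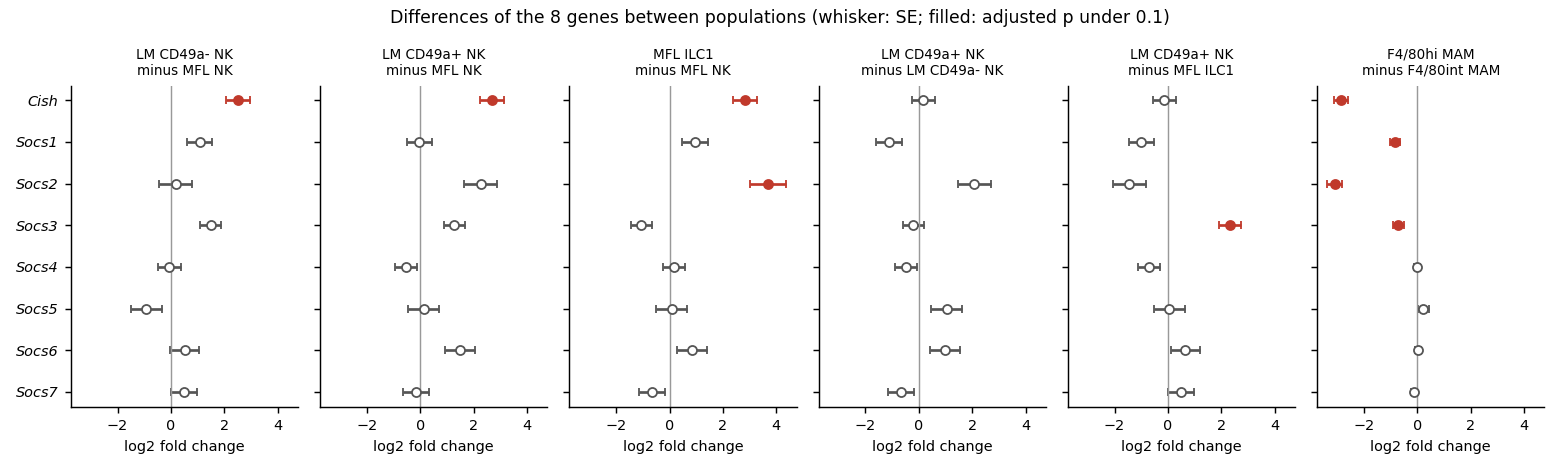
Log2 fold changes of the 8 genes (horizontal axes) in the 6 comparisons of 2 populations, with whiskers of 1 SE and filled points for an adjusted p under 0.1. Filled points are Cish in the 3 comparisons with MFL NK cells, Socs2 for ILC1 against MFL NK cells, Socs3 for CD49a+ NK cells of LM against ILC1, and Cish, Socs1, Socs2 and Socs3 in MAMs, all 4 lower in F4/80hi.

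In the MAMs 4 of the 8 members were called and all 4 were lower in the F4/80hi subset, where 54.9% of all 13759 genes were called and 27.1% were called lower. Cish was at 52.9, 46.0 and 35.3 CPM in the F4/80int libraries and at 9.14, 5.10 and 4.51 CPM in the F4/80hi libraries, a log2 difference of -2.86 ± 0.27, adjusted p = 7.56e-05. Socs2 was at 47.9, 35.4 and 26.5 CPM in F4/80int and at 5.90, 4.18 and 3.05 CPM in F4/80hi, a log2 difference of -3.08 ± 0.28, adjusted p = 6.57e-05. For both genes the lowest F4/80int library lay several-fold above the highest F4/80hi library. Of the 13759 genes, 409 had a more negative difference than Socs2 and 451 than Cish.

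Socs1 and Socs3 differed by less than 2-fold. Socs1 was at 24.4, 23.3 and 18.3 CPM in F4/80int and at 10.4, 16.5 and 10.2 CPM in F4/80hi (-0.83 ± 0.20, adjusted p = 0.0102). Socs3 was at 649.8, 447 and 559 CPM in F4/80int and at 380.4, 233 and 396 CPM in F4/80hi (-0.71 ± 0.21, adjusted p = 0.0237). The ranges did not overlap for these 4 members, against 58.4% of genes. All 4 calls held in each of the 6 fits without a library and in each of the 5 other fits, with adjusted p-values up to 0.0788. Among the 5, the fit without the filter kept the same 13759 genes and only repeats the main fit.

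Cish and Socs2 were lower by like amounts in F4/80hi MAMs. The ratio of Cish to Socs2 counts was 1.104, 1.30 and 1.33 in F4/80int and 1.55, 1.22 and 1.48 in F4/80hi, with overlapping ranges. The ratio of Cish to Socs1 counts was 2.17, 1.98 and 1.92 in F4/80int and 0.883, 0.309 and 0.441 in F4/80hi. The ratio of Socs3 to Cish counts lay between 9.72 and 15.8 in F4/80int and between 41.6 and 87.9 in F4/80hi. These latter ratios separated the subsets without overlap.

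Socs4, Socs5, Socs6 and Socs7 were not called between the MAM subsets, with log2 differences of 0.00 ± 0.12, 0.23 ± 0.20, 0.03 ± 0.12 and -0.12 ± 0.11 and adjusted p-values of 0.993, 0.379, 0.867 and 0.431. Within 2 SE, the Socs4 difference lay between -0.23 and 0.23 and that of Socs6 between -0.20 and 0.26 on the log2 scale. Their levels in F4/80int and F4/80hi were 31.9 ± 4.11 and 31.9 ± 2.67 CPM for Socs4 and 44.4 ± 4.68 and 45.3 ± 5.39 CPM for Socs6.

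**Figure D5:**
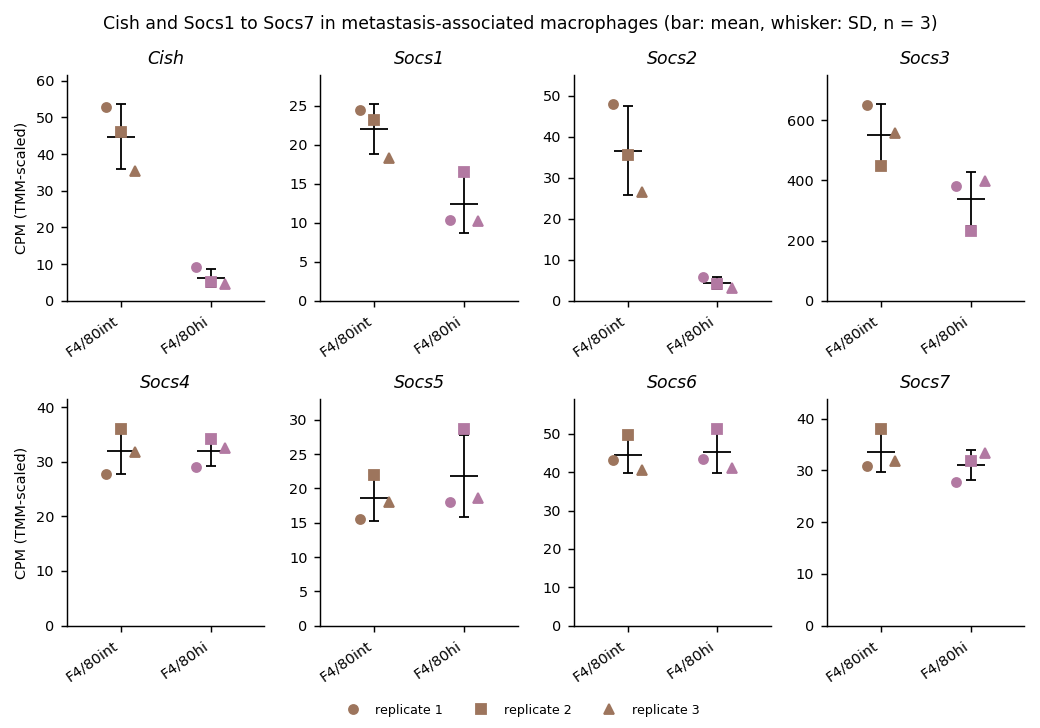
Levels of the 8 genes in CPM (vertical axes) in the 6 MAM libraries, with symbols for replicates 1 to 3, horizontal bars for the mean and whiskers for the SD. Cish, Socs1, Socs2 and Socs3 are lower in all 3 F4/80hi libraries than in any F4/80int library, and Socs4 to Socs7 overlap.

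Markers of other cell types moved with the MAM subsets. The 6 dendritic cell markers summed to between 996 and 1296 CPM in F4/80int and between 77.7 and 143 CPM in F4/80hi. The 6 classical monocyte markers summed to between 2064 and 2287 CPM in F4/80int and between 452 and 574 CPM in F4/80hi. The 9 macrophage markers summed to between 10567 and 13424 CPM in F4/80int and between 19407 and 25378 CPM in F4/80hi. No gene of these lists was at 0 in every library of a subset. Of the 7 tumor epithelial markers only 2, Cdh1 and Epcam, were in the table, and Krt8, Krt18, Krt19, Krt20 and Cldn7 were not. These 2 summed to between 197 and 281 CPM in F4/80int and between 8.30 and 11.8 CPM in F4/80hi. Most of this was Cdh1, at 234 ± 39.3 and 9.24 ± 1.97 CPM, while Epcam was at 13.9 ± 5.36 and 0.257 ± 0.099 CPM. The 14 immediate-early and dissociation genes summed to between 12421 and 17098 CPM in F4/80int and between 5618 and 8374 CPM in F4/80hi, and 12 of them were called lower in F4/80hi and none higher, where 27.1% of all genes were called lower. The part of cell composition and of early response genes in the SOCS differences was not tested.

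Compared per kilobase of the canonical transcript, Socs3 was the most abundant member in 5 of 6 populations. Its level was 35.5 ± 8.92 CPM per kb in MFL NK cells, 99.1 ± 45.3 in CD49a- and 86.4 ± 53.99 in CD49a+ NK cells of LM, 207 ± 38.0 in F4/80int MAMs and 126 ± 33.7 in F4/80hi MAMs. In ILC1 Cish led with 44.7 ± 10.4 CPM per kb, followed by Socs2 with 31.5 ± 4.06, Socs1 with 23.1 ± 1.43 and Socs3 with 17.1 ± 1.33. In F4/80hi MAMs Cish, at 1.71 ± 0.691 CPM per kb, and Socs2, at 1.72 ± 0.565, were the least abundant members and did not differ beyond their spread. The leading gene was the same in all 6 populations when the merged length of all exons was used. Socs2, with 15258 merged bases against 2540 in the canonical transcript, moved from rank 2 to rank 5 in ILC1, from rank 4 to rank 8 in CD49a+ NK cells of LM and from rank 2 to rank 8 in F4/80int MAMs.

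In GENCODE vM39 on GRCm39, Cish lies at chr9:107173225-107179983 on the plus strand. Socs1 lies at chr16:10600104-10603875, Socs2 at chr10:95219523-95253929 and Socs3 at chr11:117856905-117860898, all 3 on the minus strand. Each of these 4 genes overlaps annotated long noncoding genes of the opposite strand, 2 for Socs2 and 1 for each of the others. The study's methods give stranded reads for the lymphocyte libraries. The strand setting of the counting is not given in the sources used here. Whether reads of these partners were counted with the SOCS gene is therefore not known. Socs6 overlaps 3 processed pseudogenes.

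The genes most like a member over the 12 lymphocyte libraries were ranked by Pearson's r of log2 CPM among 9774 genes, as a description, since the points share library, depth and population. For Socs2 they were Serpina3g (r = 0.98), a serine protease inhibitor, Tnfsf8 (0.95), the CD30 ligand, and Sema6d (0.95), a semaphorin. Sema6d was at 1.73 ± 2.15 CPM in NK cells of MFL, 25.3 ± 16.2 CPM in CD49a+ NK cells of LM and 183 ± 19.2 CPM in ILC1. For Cish they were Klrb1b (0.92), an inhibitory lectin-like receptor, Ehd1 (0.88), a factor of endocytic recycling, and Bcl2 (0.87), a survival gene. Klrb1b was lowest in MFL NK cells, at 168 ± 32.4 CPM, with 284 ± 89.8 and 371 ± 107 CPM in CD49a- and CD49a+ NK cells of LM and 420.0 ± 43.9 CPM in ILC1. For Socs3 they were Tgif1 (0.99), a homeobox corepressor, Ubald2 (0.98) and Nr4a1 (0.97), and for Socs1 Cibar1 (0.91), BC004004 (0.91) and Isg20l2 (0.90).

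The wider pathway was followed with 143 genes in 12 lists. Among these lists is that of the 14 immediate-early and dissociation genes, which is not a JAK-STAT list and is counted with the rest. Of the 104 tested in lymphocytes, 6 were called higher and 7 lower in ILC1 than in MFL NK cells, where 3.06% of all genes were called and 1.38% were called higher. Of the 4 Janus kinase genes, Jak2 was higher in ILC1 (1.28 ± 0.24, adjusted p = 0.00411), and Jak1 (-0.98 ± 0.21, adjusted p = 0.015) and Tyk2 (-0.96 ± 0.20, adjusted p = 0.0115) were lower. None of the 7 STAT genes was called, and Stat5a was at 47.1 ± 7.27 CPM in ILC1 and 52.3 ± 2.80 CPM in MFL NK cells. Of 21 receptor genes 3 were higher and 3 lower.

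The receptors of IL-7 and IL-21, cytokines of the common gamma chain, were among those higher. Il7r stood at 117 ± 57.5 CPM in ILC1 against 6.06 ± 0.12 CPM in MFL NK cells (4.27 ± 0.58, adjusted p = 0.000241), and Il21r at 222 ± 30.2 and 24.1 ± 4.67 CPM (3.21 ± 0.36, adjusted p = 3.14e-05). Asb2, another SOCS-box protein, was at 291 ± 32.8 CPM in ILC1 against 3.96 ± 1.43 CPM in NK cells of MFL (6.20 ± 1.02, adjusted p = 0.00154). Lower in ILC1 were Nr4a1 (-2.52 ± 0.69, adjusted p = 0.0712), the cytokine gene Osm (-2.33 ± 0.66, adjusted p = 0.0849) and the interferon gamma receptor gene Ifngr1 (-1.55 ± 0.29, adjusted p = 0.00396). Il2rb, the IL-15 receptor beta chain, was not called, at 2525 ± 206 against 2023 ± 92.3 CPM.

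In CD49a+ NK cells of LM 10 of the 104 genes were higher and 5 lower than in ILC1, where 3.58% of all genes were called. Of the 10 higher genes, 3 were of the immediate-early and dissociation list. Among the lower ones were Asb2 (-5.07 ± 0.97, adjusted p = 0.00691), Il7r (-2.48 ± 0.54, adjusted p = 0.0166) and Il21r (-2.08 ± 0.35, adjusted p = 0.00216). Stat3 was higher (1.41 ± 0.31, adjusted p = 0.0172), at 721 ± 267 against 271 ± 61.5 CPM. Against MFL NK cells 4 of 104 were called higher and none lower, where 0.647% of all genes were called, namely the heat shock genes Hspa1a and Hspa1b together with Etv3 (1.67 ± 0.39, adjusted p = 0.0866), a transcriptional repressor, and Pim2 (1.34 ± 0.27, adjusted p = 0.0315), a STAT5-induced kinase gene. For CD49a- NK cells of LM the 2 called genes were Hspa1a and Hspa1b, where 0.0736% of all genes were called. Within the metastasis none of the 104 passed, where 0.14% of all genes did. In the interaction 1.03% of all genes were called. The interaction of CD49a and site was called for Il7r (-3.96 ± 0.75, adjusted p = 0.018), Il21r (-3.25 ± 0.48, adjusted p = 0.00262) and Il4ra (-2.12 ± 0.53, adjusted p = 0.0974), all negative as for Cish, and for Il10ra (1.51 ± 0.31, adjusted p = 0.0307).

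In the MAMs 20 of the 123 listed genes tested were called higher and 76 lower in F4/80hi. Over all genes 54.9% were called and 27.1% were called lower. The median log2 difference of the 123 genes was -0.59 against 0.01 over all genes. Of the 76 lower genes, 12 were of the immediate-early and dissociation list. All 7 STAT genes were lower, among them Stat4 (-2.01 ± 0.19, adjusted p = 8.82e-05), Stat5a (-1.36 ± 0.13, adjusted p = 8.03e-05) and Stat3 (-0.92 ± 0.10, adjusted p = 0.000165). Jak2 was at 50.9 ± 3.45 CPM in F4/80hi and 332 ± 63.6 CPM in F4/80int (-2.71 ± 0.15, adjusted p = 5.34e-06). Of 28 receptor genes 16 were lower and 8 higher. The GM-CSF receptor, which signals through JAK2 and STAT5, was among the lower ones. Csf2rb was at 189 ± 29.5 CPM in F4/80hi and 763 ± 13.7 CPM in F4/80int (-2.02 ± 0.13, adjusted p = 9.41e-06), and Csf2ra differed by -1.03 ± 0.09, adjusted p = 6.04e-05.

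Most of the STAT5, STAT3 and STAT6 targets listed were lower as well. Of 10 STAT5-induced genes 8 were lower in F4/80hi MAMs, such as Il2ra (-3.87), Pim1 (-2.05) and Ccnd2 (-1.68), and 2 were higher, Bcl2l1 (0.78) and Myc (0.36). Of 6 genes induced by IL-10 and STAT3, 5 were lower and Il4ra was higher. Of 7 STAT6-induced genes 5 were lower and 1 higher. Ccl17, a chemokine gene, was at 1.31 ± 0.32 CPM in F4/80hi and 115 ± 32.4 CPM in F4/80int (-6.45 ± 0.28, adjusted p = 2.05e-06). The chemokine gene Ccl22 (-6.36 ± 0.26, adjusted p = 1.81e-06) and the lectin gene Mgl2 (-4.03 ± 0.25, adjusted p = 8.52e-06) were lower too. Mrc1, the mannose receptor, was higher (2.59 ± 0.18, adjusted p = 1.75e-05), as were the receptor genes Il12rb1 (1.30 ± 0.33, adjusted p = 0.0113) and Il11ra1 (0.96 ± 0.08, adjusted p = 5.25e-05). Of the 6 SOCS-box ligase parts Eloc (0.36), Rnf7 (0.33) and Cul5 (0.23) were higher and Arih2 (-0.74) and Ube2f (-0.53) lower.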

How the data were processed

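Bulk RNA-seq of 12 lymphocyte and 6 MAM libraries was used. For the lymphocytes the authors used Trim Galore for trimming, Salmon (v1.5.0) with GENCODE on GRCm39 for quantification, and tximport for sums per gene. The deposited values are estimated counts without normalization, as whole numbers. For the MAMs the submitters' processing notes name Salmon (v1.10.0) and GRCm39, and the deposited estimated counts hold no gene with fewer than 37 counts in total. Each table was analyzed on its own.

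Genes were kept by filterByExpr, libraries were scaled by TMM, and populations were compared with edgeR (v4.0.16) under R (v4.3.3) by the quasi-likelihood test, with 1 fit for the 12 lymphocyte and 1 for the 6 MAM libraries. Adjustment was over all genes tested, by the Benjamini-Hochberg method, and an adjusted p under 0.1 was called. All p-values are two-sided. The SE is the log2 fold change divided by the square root of F and is approximate. CPM used the TMM-scaled totals. Correlations used log2 CPM with a prior count of 2. The test was tried on simulated counts. Alternatives used RLE scaling, no filter, DESeq2 (v1.42.0), limma-voom with quality weights (v3.58.1), a replicate block, the 2 populations alone, and each library left out.

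Named were all 8 members, the 3 called pathway genes with the largest change per direction whose mean reached 5 CPM in a population, and the 3 genes most like Cish, Socs1, Socs2 and Socs3. Genes named beyond this rule were chosen after their values were seen. The members and lists were chosen with earlier results of these data known. Other experiments of the study were not analysed here. The result of 1 pathway list is not reported here.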

Additional observations from a re-analysis of the deposited data

Results flagged for a closer look

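The CD49a+ cells were ILC1 in MFL and NK cells in LM, so site and cell type cannot be told apart in the interaction. The difference in Cish linked to CD49a was not the same at both sites. It was 2.81 on the log2 scale between ILC1 and NK cells of MFL and 0.17 between CD49a+ and CD49a- NK cells of LM, and the test of the difference itself gave -2.64 ± 0.61 (edgeR, adjusted p = 0.0622). Each of the 5 fits other than leaving out a library called it, with adjusted p-values up to 0.0547, and 5 of the 12 fits without a library did. Groups of 3 libraries are too small for a test of single outlying libraries, and none was made.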

How the results depend on the processing

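In MAMs the 4 members called were 4 under every alternative run, of which the fit without the filter repeats the main fit. In lymphocytes the number of members called moved. Within LM, CD49a+ against CD49a- NK cells, it was 1 with DESeq2 and 0 to 1 without single libraries. Between LM CD49a+ and MFL NK cells it was 3 without the filter, 3 with DESeq2, 2 with quality weights and 1 to 2 without single libraries. Between LM CD49a- and MFL NK cells it was 2 without the filter, with DESeq2 and with quality weights, 0 in the fit of the 2 populations and 0 to 2 without single libraries. Between MFL ILC1 and MFL NK cells it was 3 without the filter, 4 with quality weights and 4 in the fit of the 2 populations. For CD49a+ NK cells of LM against ILC1 it was 2 in both of these. For the interaction it was 2 without the filter and 0 to 1 without single libraries. No log2 fold change of a called member changed sign. The cause was not tested. With quality weights the median log2 difference of all genes moved to -0.27, -0.36 and -0.28 for CD49a+ and CD49a- NK cells of LM against MFL NK cells and for CD49a+ NK cells of LM against ILC1.

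Counts over all genes moved too, from 19, 88, 10, 416, 486 and 140 in the order LM CD49a+ against LM CD49a- NK cells, LM CD49a+ and LM CD49a- against MFL NK cells, ILC1 against MFL NK cells, LM CD49a+ NK cells against ILC1, and the interaction. Without the filter the first 3, the fifth and the interaction were 200, 371, 158, 774 and 264. With DESeq2 they were 543, 365, 161, 667, 1010 and 349. With quality weights the first 5 were 0, 307, 104, 2645 and 935, where the 0 stands beside 746 genes with an unadjusted p under 0.05 in limma. In fits of the 2 populations the first was 3, the third 3 and the fourth 1228. Without single libraries the ranges were 5 to 267, 26 to 168, 1 to 110, 268 to 562, 257 to 708 and 75 to 256, and 6550 to 7234 in MAMs against 7555.

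Deviations of same-numbered libraries from their population means correlated at -0.045 to 0.098 in lymphocytes and -0.015 to 0.172 in MAMs. With 3 libraries per population and the spread between them, this cannot exclude that same-numbered libraries shared a pool or a sorting. With the replicate block the counts were 30, 145, 34, 465, 509 and 143 in lymphocytes and 7512 in MAMs, and the number of members called did not change in any comparison. Of the members, the lowest count in a library was 16, for Socs2.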
